A study of Homo sapiens with 6 samples.

Results

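The S100 proteins are small calcium-binding proteins, and 10 of their genes (S100A2, S100A4, S100A6, S100A8, S100A9, S100A11, S100A13, S100A14, S100A16 and S100P) were followed in HepG2 cells with and without a knockdown of ARHGEF2. They were picked by gene name from a table of 27605 genes, 12291 of which averaged 0.5 FPKM or more across the 6 libraries and were tested. All 10 S100 genes passed this filter. FPKM counts fragments relative to transcript length and to the mapped fragments of the library. S100A9 was known to be higher in the knockdown when the genes were chosen, so its difference between the groups is given as a description, and nothing is read from counts that include it.

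HepG2 is an established human liver cancer line, named in the labels as a hepatoma line from liver. The control group, shNC, had 3 libraries with the genotype given as WT, and the shARHGEF2 group had 3 libraries of cells infected with a lentivirus that lowers ARHGEF2, an activator of the small GTPase RHOA that binds microtubules. The paper names shNC as the control group of the stable knockdown, so WT need not mean uninfected cells. The comparison addresses which transcripts differ once ARHGEF2 is lowered. The sources used here give neither the number of hairpins behind the shARHGEF2 libraries nor whether the libraries of a group came from separate cultures. A p-value here sets the group difference against the spread within the groups of these 6 libraries, which may be technical. It does not speak for other cultures or hairpins.

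S100 proteins carry a pair of EF-hand loops that take up calcium, and most of them work as dimers. Calcium opens a surface through which an S100 dimer binds a partner, such as an annexin or myosin. Some members, S100A8 and S100A9 above all, are also released from cells and bind receptors such as RAGE and TLR4. S100A8 and S100A9 together form calprotectin, which is abundant in neutrophils and monocytes and is also made by stressed epithelium. S100P, S100A4, S100A6 and S100A11 are frequently high in carcinomas. Most S100 genes stand in 1 cluster on chromosome 1. On that chromosome lay 9 of the 10 genes, whereas S100P lay on chromosome 4.

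Of the 10 genes, 4 had shNC and shARHGEF2 values that did not overlap, beside 20.5% of all genes tested. Nothing is read from this count, which includes S100A9, chosen for its difference, and S100A8, which passed the filter through its higher group. The sequence upstream of each of the 4 is shown because the levels of factors known to bind such sequence are given further on. The sequences are from RefSeq (GRCh38.p14) and run from up to 250 bases before the annotated start to the base before it, 5′ to 3′ on the strand of the gene. They cover chr1:153357604-153357853 on the plus strand for S100A9, and on the minus strand chr1:153391189-153391438 for S100A8, chr1:153545807-153546056 for S100A4 and chr1:153616333-153616575 for S100A14. Capitals mark matches to a C/EBP motif or to the TATA box.
S100A9: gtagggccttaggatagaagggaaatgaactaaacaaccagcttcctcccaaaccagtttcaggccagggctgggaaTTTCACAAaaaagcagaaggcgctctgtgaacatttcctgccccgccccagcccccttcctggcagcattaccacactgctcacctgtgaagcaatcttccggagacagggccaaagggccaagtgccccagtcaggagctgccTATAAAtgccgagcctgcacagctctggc
S100A8: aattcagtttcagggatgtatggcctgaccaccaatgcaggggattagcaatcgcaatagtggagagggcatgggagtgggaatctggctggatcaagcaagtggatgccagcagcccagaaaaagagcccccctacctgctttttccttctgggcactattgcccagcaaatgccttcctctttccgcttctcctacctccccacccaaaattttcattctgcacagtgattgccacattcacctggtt
S100A4: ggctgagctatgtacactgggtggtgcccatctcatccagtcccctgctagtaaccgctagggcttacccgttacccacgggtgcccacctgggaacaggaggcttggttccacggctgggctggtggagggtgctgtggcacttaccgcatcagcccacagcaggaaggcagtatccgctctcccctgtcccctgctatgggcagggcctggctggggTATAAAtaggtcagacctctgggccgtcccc
S100A14: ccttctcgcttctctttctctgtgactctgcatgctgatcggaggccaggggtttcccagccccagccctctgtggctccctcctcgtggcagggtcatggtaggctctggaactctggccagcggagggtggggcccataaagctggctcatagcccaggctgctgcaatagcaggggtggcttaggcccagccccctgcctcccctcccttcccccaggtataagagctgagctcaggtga

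In the S100A9 sequence the C/EBP match began 173 bases and the TATA box 29 bases before the start. The S100A4 sequence held a TATA box 31 bases before the start, and the S100A14 sequence held none of the 5 motifs searched. RefSeq gave 3 windows for S100A8, 2 of which held a TATA box and 2 a C/EBP match. The window shown, the one furthest upstream of those at its principal start, held neither. Each motif was searched on either strand of the 250 bases before the start. For each gene 1 window was used, the one nearest its principal start. That window lay 809 bases from the principal start for S100P, 224 for S100A6 and at most 31 for the other genes. In these windows the C/EBP motif (TTNCNNAA) was present for 6 of the 10 S100 genes and in 33.2% of all 35116 windows, the AP-1 motif (TGANTCA) for 1 (S100A2) and in 6.57%, and the HIF motif (ACGTG) for 1 (S100A16) and in 18.5%. The STAT motif (TTCNNNGAA) was present for 0 of the 10 and in 6.57%, and TATAAA for 3 (S100A9, S100A4 and S100P) and in 10.7%. Over every window that RefSeq gives for the 10 genes, 7 genes had a C/EBP match and 5 had TATAAA in at least 1 window, and the counts for the other 3 motifs were the same. These are matches of letters and were not tested as binding sites.

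The targeted gene was checked first. ARHGEF2 stood at 13.03, 14.4 and 13.9 FPKM in shNC and at 4.25, 4.004 and 4.82 FPKM in shARHGEF2 libraries. It was lower in every shARHGEF2 library, with a log2 fold change of -1.47 and a standard error of 0.11 (limma adjusted p = 0.00244). Estimated depth was between 20135000 and 23330000 read pairs a library. Of all genes tested, 24 were higher and 10 lower in shARHGEF2 cells at an adjusted p under 0.05. With each library scaled by its median of ratios these became 4 higher and 3 lower. Of 12 hepatocyte markers, 6 were listed in the table, of which VTN alone had a mean of at least 1 FPKM and 5 had a mean under 0.5 FPKM. AFP did not pass 0.0703 FPKM and HNF4A did not pass 0.0956 FPKM in any library, so the defining hepatocyte transcripts were at or near 0 in libraries labelled HepG2. Of 14 markers of stratified epithelium, 10 were listed, and 3 had a mean of at least 1 FPKM: KRT17, a keratin, at 608 ± 141 FPKM in shNC and 636 ± 76.1 FPKM in shARHGEF2 (SD, n = 3), SFN and KRT16. Another 6 of the 10 had a mean under 0.5 FPKM. Among these were KRT5 and TP63, at means of 0.0507 and 0.0136 FPKM over all libraries.

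The S100 genes spanned more than 3 orders of magnitude in these cells. Per length, S100A11 and S100A6 were the most abundant, at 1263 ± 130 and 1131 ± 52.0 FPKM in shNC (SD, n = 3), and their libraries overlapped. S100A4 followed at 909 ± 61.8 FPKM, below every library of those 2 genes. S100P and S100A16 came next at 450 ± 50.2 and 221 ± 21.7 FPKM, and S100A13 stood alone at 36.6 ± 7.30 FPKM. S100A9, S100A2 and S100A14 lay close together, at 6.46 ± 0.328, 6.24 ± 0.439 and 5.73 ± 0.267 FPKM. The values of S100A9 and S100A2 overlapped, and every S100A14 value was below every S100A2 value. S100A8 was the lowest, at 0.431 ± 0.169 FPKM. Of the 10 genes, 5 had a mean of at least 100 FPKM over all libraries, 4 a mean between 5 and 100 FPKM, and 1 a mean under 1 FPKM.

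**Figure D1:**
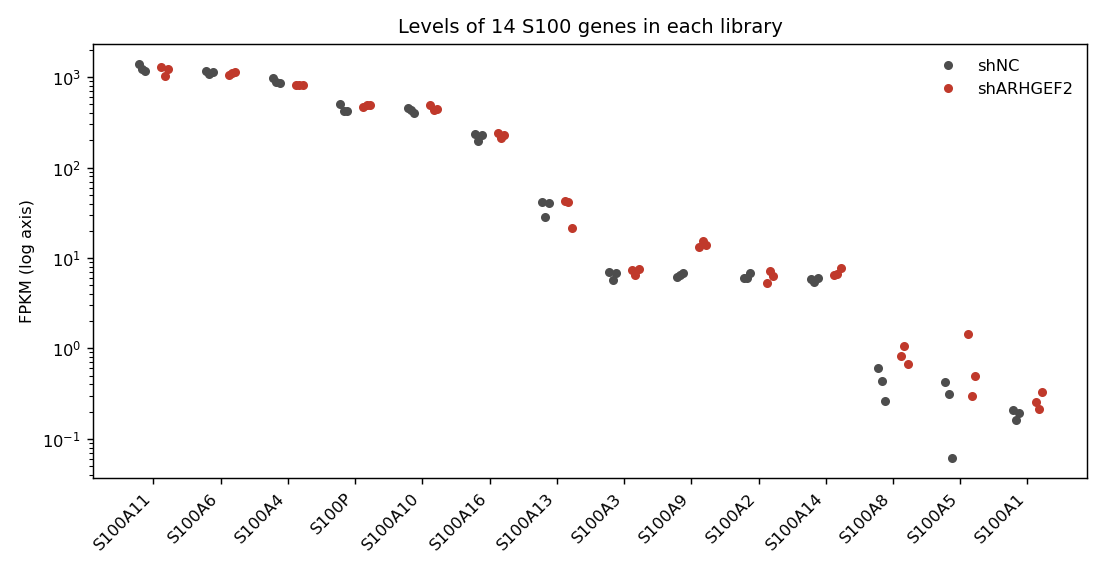
Level of 14 S100 genes in each library, in FPKM on a log axis, with shNC in grey and shARHGEF2 in red and 1 point per library. S100A11, S100A6 and S100A4 sit at the top in either group, and S100A9 is the gene whose red points stand clear above S100A3 and S100A2, its neighbours in shNC.

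In shARHGEF2 cells the same order held down to S100A13. Below it, S100A9 was the next member at 14.1 ± 1.03 FPKM (SD, n = 3), above every library of S100A14 and S100A2, whose values overlapped in this group at 6.99 ± 0.725 and 6.27 ± 0.921 FPKM. S100A8 remained the lowest of the 10 at 0.852 ± 0.192 FPKM. The sum of the 10 genes was 4029 ± 292 FPKM in shNC and 3883 ± 133 FPKM in shARHGEF2, which was 1.20 ± 0.0392% and 1.19 ± 0.0356% of all FPKM (SD, n = 3). S100A4, S100A6 and S100A11 made up 82.0 ± 0.714% of that sum in shNC and 80.0 ± 0.712% in shARHGEF2. S100A9 made up 0.161 ± 0.0183% and 0.363 ± 0.0392% of it.

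S100A9, the larger subunit of calprotectin and a ligand of RAGE and TLR4, was at 6.13, 6.47 and 6.79 FPKM in shNC and at 13.2, 15.2 and 13.8 FPKM in shARHGEF2 libraries. Every shARHGEF2 library was far above every shNC library, and the libraries of a group lay close together. The ratio of the means was 2.18, and the log2 fold change on the log2(FPKM + 1) scale was 1.01 (standard error 0.10). These values correspond to an estimated 78.8 to 84.6 read pairs in shNC and 158 to 194 in shARHGEF2 libraries, on 1 listed transcript of 577 nt. With another pseudocount, another scaling or a library left out, the log2 fold change lay between 0.96 and 1.11. The other alternatives alter the test or the filter and leave the fold change as it is.

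S100A8, the other subunit of calprotectin, was at 0.599, 0.434 and 0.260 FPKM in shNC and at 0.826, 1.06 and 0.674 FPKM in shARHGEF2 libraries. The lowest shARHGEF2 library was above the highest shNC library, by less than the spread within either group. The ratio of the means was 1.98 and the log2 fold change 0.37 (standard error 0.13). S100A8 reached the filter of 0.5 FPKM through its shARHGEF2 libraries alone, so these values are a description, and it was not among the genes called. Its reads were few, an estimated 2.60 to 10.0 pairs in shNC and 7.78 to 16.7 in shARHGEF2. With a pseudocount of 0.1 its log2 fold change was 0.87, and after quantile normalization its groups overlapped.

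The S100A8 to S100A9 ratio of FPKM, a description of how the calprotectin transcripts were balanced, was 0.0977, 0.0670 and 0.0384 in shNC and 0.0624, 0.0693 and 0.0490 in shARHGEF2 libraries. The shARHGEF2 values all lay inside the shNC range. The means were 0.0677 ± 0.0297 and 0.0602 ± 0.0104 (SD, n = 3), and their difference of -0.00749 was smaller than the spread in either group and turned to 0.00752 without shNC replicate 1. No test was run on it, since S100A9 was chosen for its difference.

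Markers of myeloid cells, the usual source of calprotectin, were looked at beside these values. Of 10 markers 7 were listed, all with a mean under 0.5 FPKM, and their sum was 0.300 to 0.591 FPKM in shNC and 0.482 to 0.776 FPKM in shARHGEF2. PTPRC, the common leukocyte antigen, did not pass 0.0239 FPKM in any library, far below S100A9. In bulk libraries, a change in the share of cells that express a gene and a change in RNA per cell cannot be told apart.

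**Figure D2:**
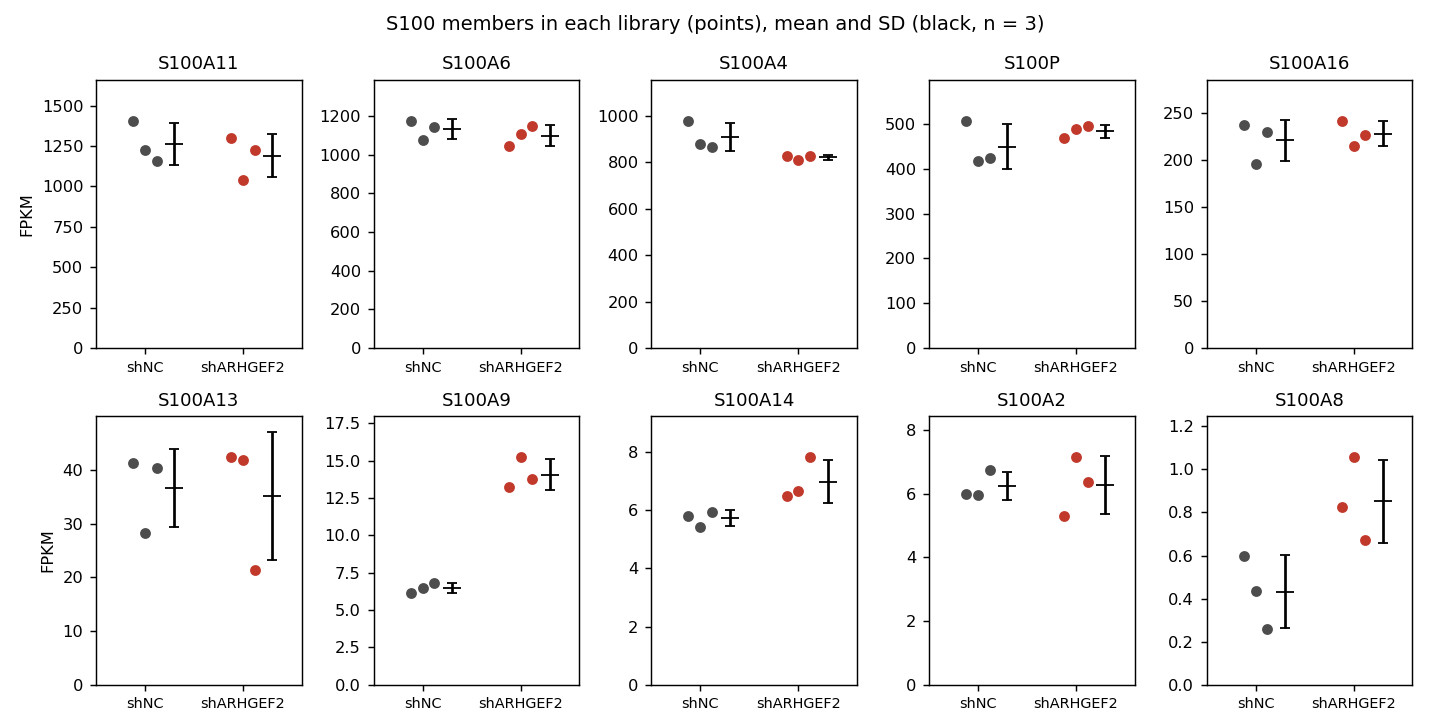
FPKM of the 10 S100 genes in each library, each panel from 0 on its own linear axis, with shNC in grey, shARHGEF2 in red and the mean and SD (n = 3) in black beside each group. The red points lie clear of the grey ones for S100A9, S100A8 and S100A14 (above) and S100A4 (below), and the groups overlap in the other 6 panels.

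S100A14, an epithelial S100 protein, was at 5.81, 5.43 and 5.95 FPKM in shNC and at 6.48, 6.66 and 7.82 FPKM in shARHGEF2 libraries. The groups did not overlap, and shARHGEF2 replicate 3 was the highest library. Its ratio of means was 1.22 and its log2 fold change 0.24 (standard error 0.11, 95% interval -0.01 to 0.50), which did not pass (limma adjusted p = 0.391). SFN, a marker of stratified epithelium, also had groups that did not overlap, at 228 ± 21.5 FPKM in shNC and 287 ± 16.2 FPKM in shARHGEF2 (SD, n = 3, limma adjusted p = 0.184). The other tested markers of that list, KRT17, KRT16 and KRT14, had groups that overlapped. The summed level of the 10 listed markers, most of it from KRT17 and SFN, was 690 to 1017 FPKM in shNC and 869 to 985 FPKM in shARHGEF2. Its part in the S100A14 values was not tested.

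S100A2, an S100 protein of basal epithelium, was at 5.99, 5.97 and 6.75 FPKM in shNC and at 5.31, 7.14 and 6.36 FPKM in shARHGEF2 libraries. The shARHGEF2 libraries held its lowest and its highest value. Its log2 fold change was 0.00 (standard error 0.13, 95% interval -0.29 to 0.29), so a difference of up to 0.29 on the log2 scale in either direction lay inside the interval.

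S100A4, a partner of non-muscle myosin known for its role in cell movement, was at 980, 881 and 866 FPKM in shNC and at 829, 811 and 826 FPKM in shARHGEF2 libraries. Every shARHGEF2 library was below every shNC library, and shNC replicate 1 stood above the other two of its group. The ratio of the means was 0.904 and the log2 fold change -0.14 (standard error 0.08, 95% interval -0.33 to 0.04), which did not pass (limma adjusted p = 0.484, exact two-sided permutation p = 0.1, the smallest that 3 libraries against 3 allow). After quantile normalization its groups overlapped and the log2 fold change was -0.03 (limma adjusted p = 0.865). The S100A4 locus overlaps S100A3 on the same strand, but their listed transcripts share no stretch of 50 bases.

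S100A6, which binds the ubiquitin ligase component CACYBP, was at 1175, 1073 and 1144 FPKM in shNC and at 1042, 1104 and 1148 FPKM in shARHGEF2 libraries. The groups overlapped over most of their range. Its log2 fold change was -0.04 (standard error 0.08, 95% interval -0.23 to 0.14, limma adjusted p = 0.874).

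S100A11, a partner of annexin A1, was at 1407, 1228 and 1155 FPKM in shNC and at 1299, 1042 and 1226 FPKM in shARHGEF2 libraries. Replicate 1 was the highest library in each group, and the groups overlapped. Its log2 fold change was -0.09 (standard error 0.11, 95% interval -0.34 to 0.17, limma adjusted p = 0.799). After quantile normalization the log2 fold changes of S100A6 and S100A11 were 0.07 and 0.05, of the opposite sign. Of the 50-base stretches of S100A11, 1.905% also occur in AC006483.1.

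S100P, found in placenta and often high in pancreatic and other carcinomas, was at 507, 417 and 424 FPKM in shNC and at 468, 488 and 495 FPKM in shARHGEF2 libraries. Its shNC replicate 1 was the highest of all 6 libraries and the other shNC libraries were the lowest. The log2 fold change was 0.11 (standard error 0.10, 95% interval -0.11 to 0.33, limma adjusted p = 0.675).

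S100A16, a widely expressed member, was at 237, 196 and 230 FPKM in shNC and at 241, 215 and 227 FPKM in shARHGEF2 libraries. The groups overlapped, with a log2 fold change of 0.05 (standard error 0.10, 95% interval -0.18 to 0.27, limma adjusted p = 0.886).

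S100A13, which takes part in the release of FGF1 and IL1A by cells, was at 41.3, 28.2 and 40.3 FPKM in shNC and at 42.3, 41.8 and 21.3 FPKM in shARHGEF2 libraries. It had the largest standard error of the 10 genes, with 1 low library in each group (shNC replicate 2 and shARHGEF2 replicate 3). At -0.10, its log2 fold change had a standard error of 0.29 and a 95% interval of -0.80 to 0.60 (limma adjusted p = 0.926). It was 0.21 without shARHGEF2 replicate 3. Of its 50-base stretches 19.2% also occur in AL162258.1, a gene that overlaps it on the same strand, so its FPKM is uncertain. S100A1 overlaps it on the opposite strand, and the setting used for strand in the counting is not given in the sources used here.

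Of the 10 genes 1 passed the adjusted threshold, S100A9, where 0.277% of all genes tested were called (0.195% higher and 0.0814% lower). That gene was chosen for its difference, so nothing is read from the count, which fell to 0 with no filter and without shARHGEF2 replicate 3. Without that library 2 of the 10 had an unadjusted p under 0.05 in limma, as did 1229 of 12273 genes tested. Over the 10 genes 3 (S100A9, S100A8 and S100A14) were higher without overlap and 1 (S100A4) was lower, where 20.5% of all genes tested had groups that did not overlap (11.3% higher and 9.17% lower). Since S100A9 was chosen for its difference and S100A8 passed the filter through the group in which it is higher, nothing is read from these counts either. After quantile normalization, 2 were higher without overlap (S100A9 and S100A14) and 0 were lower. The fitted log2 fold changes were positive for 6 genes and negative for 4, with a median of 0.02, beside -0.00164 over all genes tested. Their median size was 0.11, beside 0.13 over all genes tested.

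**Figure D3:**
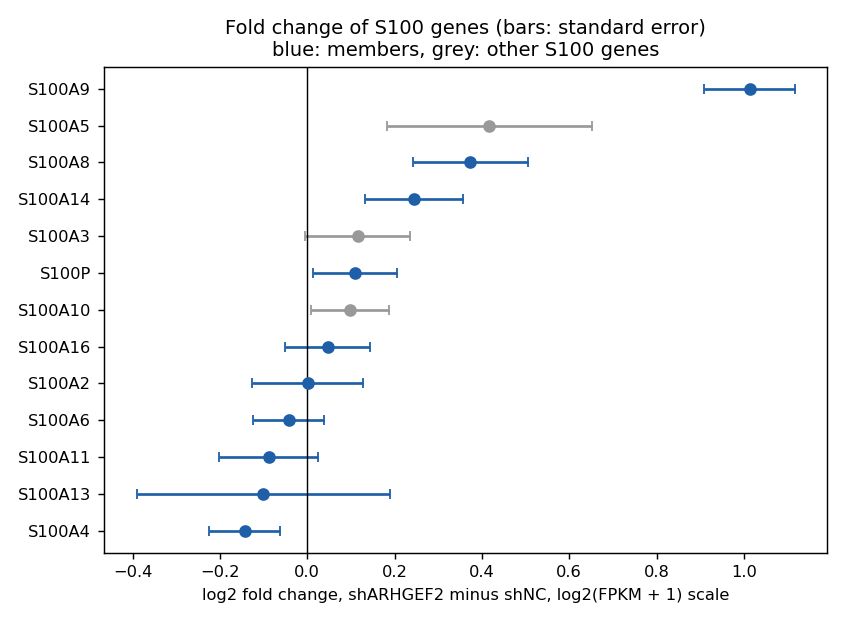
Log2 fold change of 13 tested S100 genes (shARHGEF2 minus shNC, on the log2(FPKM + 1) scale), with bars of 1 standard error, the 10 genes of interest in blue and the other S100 genes in grey. S100A9 stands apart at 1.01, and the next highest, S100A5 and S100A8, are at 0.42 and 0.37 with wider bars.

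The table held 15 of the 20 S100 genes sought. S100A7, S100A7A, S100A12, S100G and S100Z were not listed and were not analysed here. S100A10, the annexin A2 partner that does not need calcium, was at 455, 430 and 402 FPKM in shNC and at 498, 437 and 444 FPKM in shARHGEF2 libraries. Its level overlapped that of S100P in each group, and its log2 fold change was 0.10 (standard error 0.09, 95% interval -0.11 to 0.30, limma adjusted p = 0.691). S100A3 was at 6.54 ± 0.753 and 7.15 ± 0.584 FPKM (SD, n = 3), with a log2 fold change of 0.12 (limma adjusted p = 0.739).

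S100A5 was at 0.422, 0.311 and 0.0609 FPKM in shNC and at 1.43, 0.295 and 0.495 FPKM in shARHGEF2 libraries. A single library, shARHGEF2 replicate 1, was high, and it carried the gene past the filter (log2 fold change 0.42, standard error 0.23, given as a description). S100A1 was under the filter at 0.187 ± 0.0231 and 0.264 ± 0.0582 FPKM (SD, n = 3), and S100B was listed at 0 in all libraries but shARHGEF2 replicate 3, at 0.0240 FPKM. Neither S100A10 nor S100A3 was called in limma or had an unadjusted p under 0.05. The fused S100 genes of the epidermis, of which FLG, HRNR and TCHH were listed, did not pass the filter.

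Along chromosome 1, the fitted differences of the tested genes near the S100 genes were smaller than that of S100A9. Since S100A9 was chosen for its difference, nothing is read from this. Of the 128 genes within 500 kb of the S100 genes, 20 genes other than S100 genes were tested. In limma 0 were called and 3 had an unadjusted p under 0.05, as did 13.7% of all genes tested. Their log2 fold changes lay between -0.31 and 0.37 with a median of 0.04, and 4 were higher and 2 lower without overlap, beside 20.5% of all genes in either direction. Before S100A9 in the order of tested genes, TDRKH-AS1 and THEM4 had log2 fold changes of 0.25 and -0.21. The first 3 after it outside the family were CHTOP, SNAPIN and ILF2, at 0.05, -0.31 and 0.03. Next to it in that order were S100A11 on one side at -0.09 and S100A8 on the other at 0.37. This is order and not distance. The sequence upstream of S100A11 lies at chr1:152037036-152037254, far from that of S100A9 at chr1:153357604-153357853, and THEM4 and TDRKH-AS1 come before S100A11.

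**Figure D4:**
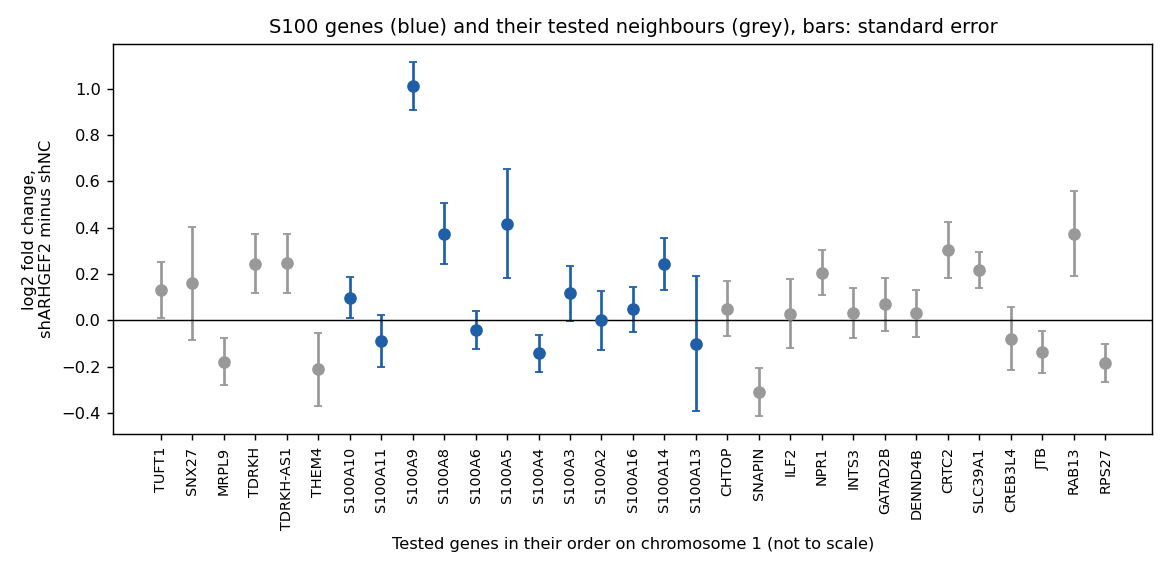
Log2 fold change (shARHGEF2 minus shNC, log2(FPKM + 1) scale) of tested genes, 1 neighbour left out, in their order along chromosome 1, not to scale, with bars of 1 standard error, S100 genes in blue and others in grey. S100A9, chosen for its difference, is at 1.01, and every other gene plotted is under 0.5.

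The receptors and adaptors through which released S100 proteins act were present in part. Of 9 listed, 5 were tested and 0 were called in limma, with 1 (MCAM) at an unadjusted p under 0.05, where 13.7% of all genes were. Of the 5, 4 had a positive fitted log2 fold change, beside 49.6% of all genes, with a median of 0.18. BSG (basigin), a receptor for S100A9, was at 228 ± 36.9 and 256 ± 13.3 FPKM (SD, n = 3, log2 fold change 0.18, limma adjusted p = 0.567). MCAM, a cell adhesion molecule that also binds S100A8 and S100A9, was at 37.6, 40.5 and 41.3 FPKM in shNC and at 58.0, 49.6 and 51.8 FPKM in shARHGEF2 libraries. Its groups did not overlap, and its log2 fold change, at 0.41 (standard error 0.09), did not pass (limma adjusted p = 0.127). NPTN, the receptor neuroplastin, and MYD88, the adaptor of TLR4, had log2 fold changes of 0.13 and -0.03 (limma adjusted p = 0.756 and 0.953). AGER, which encodes RAGE, was low at 0.677 ± 0.0198 and 0.953 ± 0.226 FPKM (SD, n = 3), with groups that did not overlap (limma adjusted p = 0.470), and TLR4 was under the filter.

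Of 17 partners inside the cell 15 were tested and 0 were called in limma, with 2 at an unadjusted p under 0.05 (13.7% of all genes), MYH9 among them. The fitted log2 fold changes were positive for 8 and negative for 7, with a median of 0.03. MYH9, the heavy chain of non-muscle myosin to which S100A4 binds, was at 85.1, 99.3 and 97.9 FPKM in shNC and at 81.9, 76.0 and 78.8 FPKM in shARHGEF2 libraries. Every shARHGEF2 library was lower, and the log2 fold change, at -0.25 (standard error 0.09), did not pass (limma adjusted p = 0.280). Among the 15 tested partners, 1 was lower and 1 higher without overlap, beside 9.17% and 11.3% of all genes tested. EZR (ezrin), ANXA2 and ANXA6 had log2 fold changes of 0.12, 0.03 and 0.06 with adjusted p of at least 0.614 in limma.

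EF-hand calcium sensors of other families were also counted. All 14 listed were tested and 0 were called in limma, with 0 at an unadjusted p under 0.05, beside 13.7% of all genes. CIB1, EFHD2 and CAPNS1, the most abundant of them, had log2 fold changes of 0.11, -0.05 and -0.02. CALM3, a calmodulin gene, was at 43.8 ± 19.1 and 62.3 ± 9.55 FPKM (SD, n = 3), and its log2 fold change, at 0.58, did not pass (limma adjusted p = 0.488). The list did not hold every such gene, so the count of 0 covers the 14 listed alone. Outside it, RCN3 was higher and called, with a log2 fold change of 1.03 (limma adjusted p = 0.0302). EFHD1, also outside it, had a log2 fold change of 0.55 and did not pass (limma adjusted p = 0.117). Further EF-hand genes were not looked at.

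**Figure D5:**
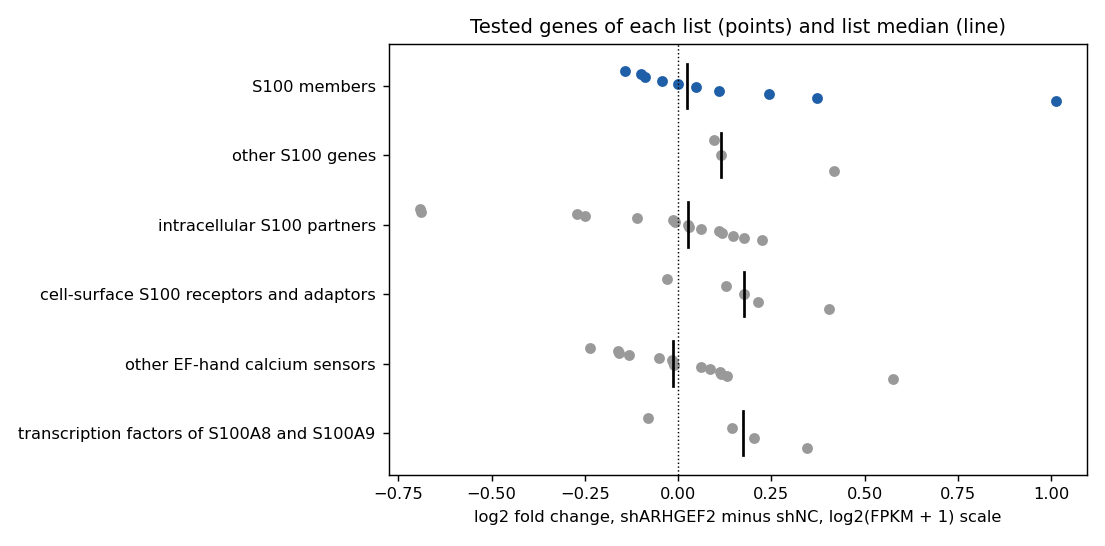
Log2 fold change of each tested gene (points, shARHGEF2 minus shNC, log2(FPKM + 1) scale) in 6 lists, with the median of each list as a line; height within a list only separates the points. The 10 S100 genes have a median of 0.02 and 1 point at 1.01, and the points of the other lists lie between -0.69 and 0.58.

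Transcription factors known to act on S100A8 and S100A9 were also looked at. Of 5 listed, 4 were tested and 0 were called in limma, with 1 (CEBPA) at an unadjusted p under 0.05, beside 13.7% of all genes. CEBPB was at 331, 294 and 365 FPKM in shNC and at 402, 380 and 354 FPKM in shARHGEF2 libraries, with overlap (log2 fold change 0.20, limma adjusted p = 0.424). CEBPA was at 3.18, 2.85 and 3.55 FPKM in shNC and at 4.09, 4.60 and 4.28 FPKM in shARHGEF2 libraries. Its groups did not overlap, and its log2 fold change, at 0.35 (standard error 0.12), did not pass (limma adjusted p = 0.252). STAT3 and HIF1A had log2 fold changes of 0.15 and -0.08 (limma adjusted p = 0.597 and 0.915), and SPI1 was under the filter.

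Outside the family, the 5 tested genes whose values over the 6 libraries lay closest to those of S100A9 were SLC25A25, SNAI3, CGA, LINC01273 and GPR3. Likeness was the root mean square difference of log2(FPKM + 1) after the shNC mean of each gene was subtracted, and it ran from 0.0973 for SLC25A25 to 0.150 for GPR3. SLC25A25, a mitochondrial carrier of ATP and magnesium, was at 4.55 ± 0.760 FPKM in shNC and 10.0 ± 1.08 FPKM in shARHGEF2 (SD, n = 3). GPR3, a G protein-coupled receptor, was at 4.28 ± 0.244 and 8.44 ± 1.20 FPKM. SNAI3, a zinc finger factor, and CGA, the common subunit of glycoprotein hormones, were lower, at 0.657 and 0.469 FPKM in shNC and 1.98 and 2.07 FPKM in shARHGEF2. CGA reached the filter of 0.5 FPKM through its shARHGEF2 libraries. LINC01273, a long non-coding RNA, was at 1.36 and 3.75 FPKM. This is a ranking by likeness to a gene chosen for its difference, so higher values in shARHGEF2 were built into it. No test was run on the ranking.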

How the data were processed

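RNA sequencing libraries of HepG2 cells (shNC, n = 3; shARHGEF2, n = 3) were analysed from the FPKM values that the authors deposited for 27605 genes. The submitters' processing notes name hg19, cutadapt 1.9, HISAT2 2.0.4, UMI-tools, StringTie 1.3.4d, DESeq2 and edgeR, without their roles. The deposited table also holds the authors' fold changes, p-values and calls, which were not used. It holds no coordinates. Of its gene IDs, 97.8% matched GENCODE 29, the source of gene order and overlaps. Depth was estimated from the spacing of FPKM × length, as the value within a set range that brought low values closest to whole numbers. At that depth 38.5 to 40.9% of low values lay within 0.1 of a whole number. Chance gives 20% at a depth fixed in advance, which this was not, so the 2 are not comparable. The depth is an estimate, so no count test or counting interval was used.

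Genes that averaged 0.5 FPKM or more were tested by limma 3.58.1 (R 4.3.3, statmod 1.5.0) on log2(FPKM + 1), with trended and robust variances and Benjamini-Hochberg adjustment over 12291 genes. Such fold changes understate those of low genes. Calls were made at an adjusted p under 0.05. Single genes were compared by exact permutation tests. Tables and plots used Python 3.11.15, pandas 2.3.3, numpy 2.4.6 and matplotlib 3.10.9. The genes named are the 10 S100 genes, the 4 most abundant and any called genes of each list, ARHGEF2, the 5 nearest patterns and the nearest neighbours in gene order. SFN and other names given beside counts fall outside this rule. A neighbouring gene and a partner gene are not reported here by name. The S100 genes and the lists were chosen with earlier results of these data known.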

Additional observations from a re-analysis of the deposited data

How the results depend on the processing

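The count of genes called moved from 34 to 0 with a replicate block (1976 at an unadjusted p under 0.05), to 1 with no filter, to 54 with at least 1 FPKM in 3 libraries, to 19 with quantile normalization, and to 7 with median of ratios scaling or with no trend or robust variances. It ran from 6 to 102 with 1 library left out, without shARHGEF2 replicate 3 and shNC replicate 3 respectively. Libraries of the same number had residual correlations of 0.184, 0.159 and -0.105 for replicates 1 to 3. Libraries of unlike number were not compared, so these values do not settle whether the numbers pair the libraries. The count of S100 genes called moved from 1 to 0 with the replicate block and with no filter, with 3 and 2 of the 10 at an unadjusted p under 0.05 in limma, and ran from 0 to 1 with 1 library left out. The count of S100 genes whose groups did not overlap moved from 4 to 2 with quantile normalization and ran from 4 to 5 with 1 library left out. Of the other 4 lists of S100 genes, partners, receptors and EF-hand sensors, 0 genes were called in limma under any alternative. The S100A8 to S100A9 difference ran from -0.0222 to 0.00752.

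Log2 fold changes of 5 S100 genes near 0 changed sign. S100A2 was at -0.00041 with a pseudocount of 0.1 and at -0.0117 with quantile normalization and -0.0121 with median of ratios scaling, and ran from -0.0851 to 0.099 with 1 library left out. S100A6 and S100A11 were at 0.0745 and 0.0531 with quantile normalization. Over the left-out libraries S100A11 ran from -0.16 to 0.0036, S100A13 from -0.27 to 0.21 and S100A16 from -0.036 to 0.099. The cause was not tested. S100A8 was not tested with at least 1 FPKM in 3 libraries, since it does not reach that level. Among the S100 genes tested, S100A8 and S100A5 stood on the fewest estimated read pairs.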
